A study of Homo sapiens with 7 samples.

Results

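Transcription factors of the epithelial-to-mesenchymal transition (EMT) were followed in a human melanoma cell line after knockdown of the long non-coding RNA GRASLND. The members were 8 genes chosen by symbol, ZEB1, ZEB2, SNAI1, SNAI2, TWIST1, TWIST2, TCF4 and TCF12. Of these, 6 had a row among the 21305 genes of the expression table, and all 6 were expressed well enough to be tested. ZEB1 and TWIST2 had no row under their symbol or Ensembl identifier and are not analysed here.

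EMT transcription factors bind short DNA words called E boxes and repress epithelial genes such as the cadherin CDH1. ZEB and SNAI proteins are zinc finger repressors, TWIST proteins are helix-loop-helix factors, and TCF4 and TCF12 belong to the E proteins, which pair with TWIST and with other helix-loop-helix factors. In cells of the melanocyte lineage these factors are not used as a single block: ZEB2 and SNAI2 are present in melanocytes and in differentiated melanoma cells, whereas ZEB1 and TWIST1 are known to take over in dedifferentiated, invasive melanoma cells.

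RNA sequencing had been performed on 501Mel cells, an established melanocytic melanoma line, carrying a doxycycline-inducible short hairpin RNA in the lentiviral Tet-pLKO-puro vector. The cells were puromycin-selected pools, not single clones. The control group, shlacZ, carried a hairpin against the bacterial lacZ mRNA (n = 3 libraries), and the knockdown groups carried the hairpins sh4 (n = 2) and sh8 (n = 2). All 3 groups received doxycycline, so no uninduced library enters a comparison. Nothing in the sample descriptions says that replicates came from separate cultures, so the p-values measure only the spread between these libraries. Libraries held 13337317 to 22855232 reads. Values are normalised read counts, which are reads divided by a size factor of the library, and differences are on the scale of log2(normalised count + 1).

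GRASLND itself had normalised counts of 309, 330 and 290 in shlacZ, 175 and 131 in sh4, and 227 and 163 in sh8. All knockdown libraries lay below all control libraries. The difference passed the test for both hairpins pooled (log2 difference -0.85 ± 0.19 SE, limma adjusted p = 0.0402) and for sh4 (-1.02, adjusted p = 0.00662), and sh8 had -0.68 (adjusted p = 0.110). The pooled call was lost when any library other than sh8 replicate 1 was left out (highest adjusted p = 0.178, without shlacZ replicate 2), and the sh4 call without sh4 replicate 2 (adjusted p = 0.0774). The melanocytic identity of the line was visible in all libraries, with MITF, the master regulator of melanocytes, at 11635 to 22076 normalised counts. Of markers of other cell types, none of 5 endothelial markers had a row, of 6 fibroblast markers 3 had one (summed 8.38 to 19.4 in any library), and of 7 keratinocyte markers 2 had one, mainly KRT10 (summed 166 to 219 in shlacZ, 143 to 169 in sh4 and 147 to 173 in sh8). Of 6 immune markers 2 had a row, LYZ and ITGAM, and their summed normalised counts were 0 to 6.28 in shlacZ, 5.27 to 8.19 in sh8 and 340 to 493 in sh4. That rise was LYZ (lysozyme) alone, with ITGAM at 3.39 or less in every library; its part in the sh4 results was not tested.

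SNAI2 was the only member that passed the test in the main fits. SNAI2 (ENSG00000019549, GRCh38 chr8:48917598-48921740, minus strand), also called Slug, is a zinc finger repressor with an established role in melanocyte development. Its normalised counts were 2663, 3327 and 2543 in shlacZ, 779 and 668 in sh4, and 3289 and 3013 in sh8. Both sh4 libraries lay far below every other library, whereas the sh8 libraries lay inside the range of the controls. SNAI2 in sh4 was at 25.4% of the shlacZ mean, a 3.93-fold lower level. The log2 difference was -1.97 ± 0.14 (SE, 95% interval -2.29 to -1.65, limma adjusted p = 8.0e-05). In sh8 it was 0.16 ± 0.14 (interval -0.16 to 0.48, adjusted p = 0.605). The hairpins themselves differed for SNAI2, with sh4 lower than sh8 by a log2 difference of -2.12 (interval -2.47 to -1.77, adjusted p = 0.000417). Among 15420 genes tested, 128 had a more negative difference in sh4 and 48 in the contrast of the hairpins.

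When both hairpins were pooled against shlacZ, the comparison used by the study, SNAI2 did not pass. The pooled log2 difference was -0.91 ± 0.53 (interval -2.07 to 0.26, limma adjusted p = 0.320), with the 4 knockdown libraries spanning 668 to 3289 normalised counts. An exact two-sided permutation test over all 35 ways of assigning libraries to the groups gave p = 0.371, where 0.0286 is the smallest p this design allows. With the mean of both hairpins taken in the fit of all 3 groups, the same difference of -0.91 had adjusted p = 0.00142, because that fit does not count the gap between sh4 and sh8 as spread. The call in sh4 and the call between the hairpins were kept in all alternative settings, including each library left out in turn (highest adjusted p = 0.00381 and 0.0188). No value was at the edge of detection, since SNAI2 had 690 reads or more in each library.

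**Figure D1:**
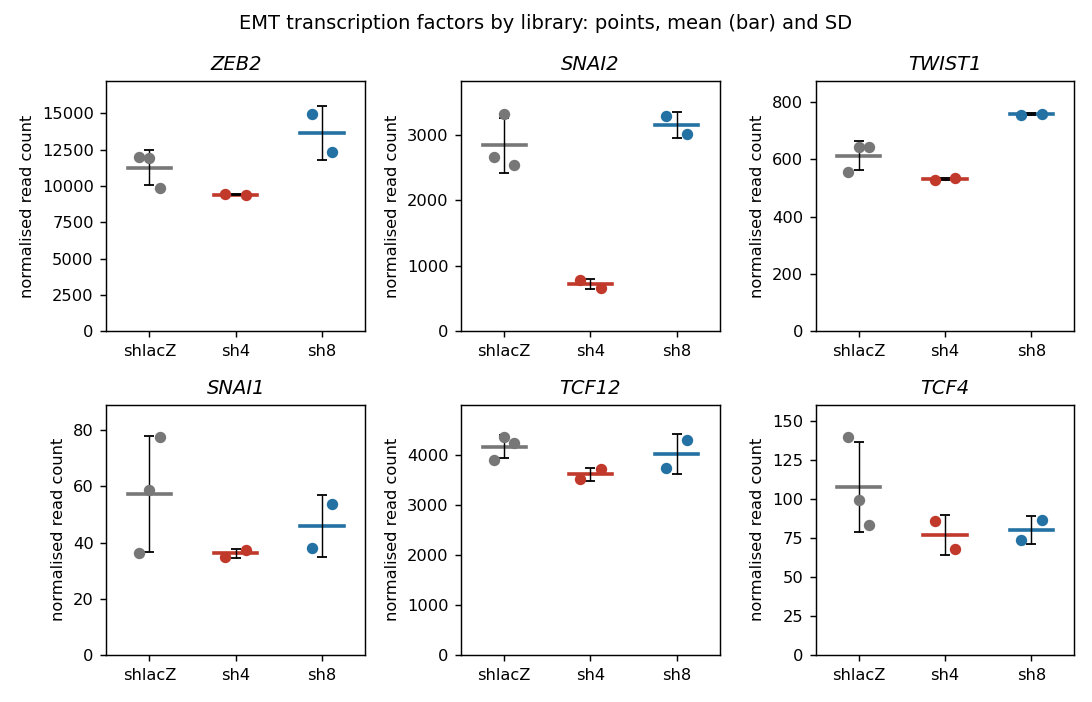
Normalised read counts (vertical axes, from 0) of the 6 tested EMT transcription factors in each library of shlacZ (grey, n = 3), sh4 (red, n = 2) and sh8 (blue, n = 2); bars are group means and error bars the SD. SNAI2 in sh4, at 779 and 668, stands clear of the other groups, while the remaining members shift by far less.

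ZEB2 (ENSG00000169554, chr2:144364364-144521057, minus strand) is the second factor of the melanocytic pair, a zinc finger repressor needed for melanocyte differentiation. Normalised counts were 11998, 11938 and 9860 in shlacZ, 9446 and 9367 in sh4, and 14973 and 12313 in sh8. The sh4 libraries lay below the lowest control and the sh8 libraries above the highest. Neither difference passed the test: sh4 was at -0.25 (interval -0.56 to 0.05, limma adjusted p = 0.209) and sh8 at 0.28 (interval -0.03 to 0.58, adjusted p = 0.316). Between the hairpins the log2 difference was -0.53 (interval -0.86 to -0.20, adjusted p = 0.0616). The pooled difference was 0.01 (interval -0.39 to 0.41, adjusted p = 0.977; exact permutation p = 1.0). The lower bound of ZEB2 in sh4, -0.56, lay above the upper bound of SNAI2, -1.65.

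TWIST1 (ENSG00000122691, chr7:19020991-19117636, minus strand) is the only measured factor of the pair tied to dedifferentiated melanoma cells. Its normalised counts were 555, 643 and 642 in shlacZ, 529 and 534 in sh4, and 755 and 760 in sh8. As for ZEB2, the sh4 libraries were the lowest and the sh8 libraries the highest of the 7. The log2 difference was -0.20 in sh4 (interval -0.49 to 0.09, limma adjusted p = 0.297) and 0.31 in sh8 (interval 0.02 to 0.60, adjusted p = 0.246). Between the hairpins it was -0.51 (interval -0.83 to -0.19, adjusted p = 0.0614). The pooled difference was 0.05 (interval -0.33 to 0.43, adjusted p = 0.881; exact permutation p = 0.857). A rise of TWIST1 thus passed the test in neither hairpin. In sh8 the interval of 0.02 to 0.60, which is not adjusted for the number of genes, lay on the positive side, and both libraries lay above every control. For sh4 the interval ends at 0.09.

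SNAI1 (ENSG00000124216, chr20:49982980-49988886, plus strand), or Snail, is the close relative of SNAI2 and the classical repressor of CDH1. It was scarce, with 29 to 89 reads per library. Normalised counts were 36.1, 58.7 and 77.4 in shlacZ, 35.01 and 37.3 in sh4, and 38.2 and 53.7 in sh8. Both knockdown groups overlapped with the controls, and the sh4 libraries lay below the sh8 libraries. The coefficient of variation of SNAI1 in shlacZ was 36.0%, above the 12.9% that counting error gives at that depth. It was 4.51% in sh4 and 23.8% in sh8, where counting error gives 15.7% and 15.1%. The log2 difference was -0.59 in sh4 (interval -1.38 to 0.20, limma adjusted p = 0.266) and -0.27 in sh8 (interval -1.06 to 0.52, adjusted p = 0.730). A fall of SNAI1 of the size seen for SNAI2 in sh4 lies outside both intervals, but a log2 difference of -1 does not.

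The E proteins showed little. TCF12 (ENSG00000140262, chr15:56918623-57299281, plus strand), a broadly expressed partner of TWIST and of other helix-loop-helix factors, had 3901, 4347 and 4244 normalised counts in shlacZ, 3521 and 3705 in sh4, and 3738 and 4302 in sh8. The sh4 libraries were the lowest 2, and sh8 overlapped with the controls. The log2 difference was -0.20 in sh4 (interval -0.46 to 0.05, limma adjusted p = 0.235) and -0.05 in sh8 (interval -0.31 to 0.20, adjusted p = 0.851). TCF4 (ENSG00000196628, chr18:55222185-55664787, minus strand), also known as E2-2 and not to be confused with the Wnt effector TCF7L2, had 56 to 135 reads per library. Its normalised counts were 139, 99.5 and 83.5 in shlacZ, 85.8 and 67.9 in sh4, and 73.8 and 86.5 in sh8. One control library stood above the rest and the other values overlapped. The log2 difference was -0.45 in sh4 (interval -1.05 to 0.14, adjusted p = 0.256) and -0.39 in sh8 (interval -0.99 to 0.21, adjusted p = 0.480).

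Counted together, 0 of 6 members passed in the pooled comparison, where 4.61% of all 15420 genes did (2.55% higher and 2.06% lower). By limma no member had an unadjusted p under 0.05 there either, and limma-voom called none. In sh4, 1 of 6 passed, SNAI2, against 22.5% of all genes (10.5% higher, 11.9% lower), so the share among the members was close to that background. In sh8, 0 of 6 passed, against 2.92% of all genes (1.38% higher, 1.54% lower); TWIST1 alone had an unadjusted p under 0.05, and limma-voom called none. Between the hairpins 1 of 6 passed, against 7.0% of all genes (3.67% higher, 3.33% lower). With every library rescaled to the same total, 59.3% of the calls in sh4 were higher, against 46.9% here, and 67.0% between the hairpins, against 52.5%; the calls of the members stayed as they were. Both sh4 libraries lay below every control for 4 members, ZEB2, SNAI2, TWIST1 and TCF12, a pattern shown by 25.6% of all genes. Both sh8 libraries lay above every control for 2, ZEB2 and TWIST1, against 16.5% of genes. Both sh4 libraries lay below both sh8 libraries for 5 members, all except TCF4, against 27.6% of genes. The median log2 difference of the 6 members was -0.28 pooled, -0.35 in sh4, 0.05 in sh8 and -0.41 between the hairpins, where the median over all genes was -0.01 in each. The sh4 and sh8 comparisons share the same control libraries.

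**Figure D2:**
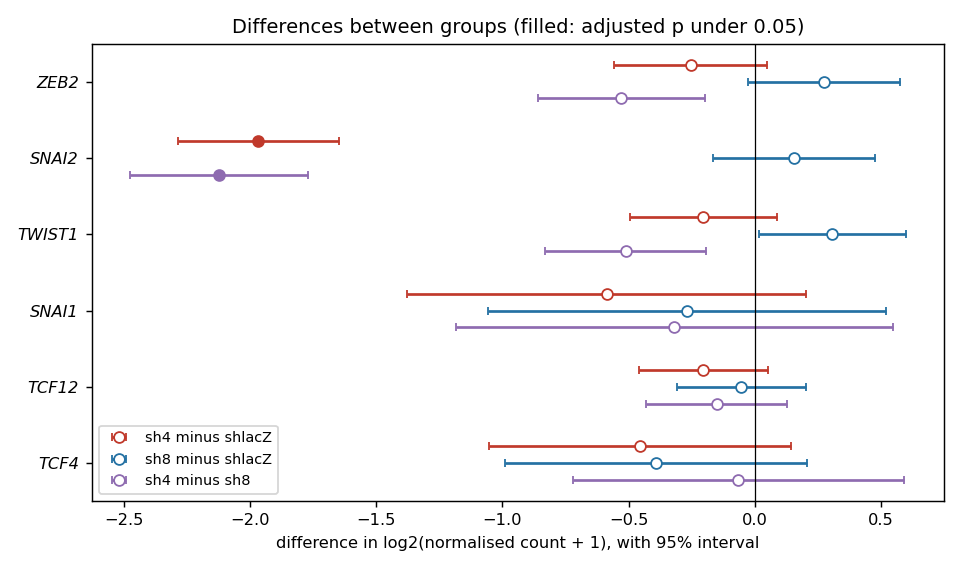
Differences in log2(normalised count + 1) with 95% intervals (horizontal axis) for sh4 minus shlacZ, sh8 minus shlacZ and sh4 minus sh8, for each member; filled points have adjusted p under 0.05. SNAI2 is the only member with filled points, at -1.97 and -2.12; for ZEB2 and TWIST1 the 2 hairpins lie on opposite sides of 0.

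To compare members with one another, counts were divided by the length of the exons of the canonical transcript. In shlacZ the order by normalised count per kilobase was SNAI2 (1305 ± 194, SD, n = 3), ZEB2 (1216 ± 131), TCF12 (681 ± 38.1), TWIST1 (376 ± 30.9), SNAI1 (33.7 ± 12.1) and TCF4 (13.4 ± 3.57). SNAI2 and ZEB2 did not differ beyond their spread, and the other neighbours in this order did not overlap between libraries. The melanocytic pair thus ranked high among all genes: 96.6% of 21281 genes with an annotated length had a lower level per kilobase than SNAI2 in shlacZ, and 96.2% than ZEB2. TWIST1 stood above 85.0% of genes, whereas SNAI1 (46.5%) and TCF4 (35.2%) were in the lower part of the distribution. In sh4 SNAI2 dropped to 332 ± 36.1 per kilobase (n = 2), the level of TWIST1 in the same libraries (326 ± 2.54). ZEB2 remained at 1015 ± 5.99 in sh4 and TCF12 at 591 ± 21.2. In sh8 SNAI2 was at 1445 ± 89.3 and ZEB2 at 1472 ± 203. With all annotated exons merged instead of the canonical transcript, the level of ZEB2 in shlacZ fell to 431 and that of TCF12 to 441, so the place of ZEB2 in the order depends on the transcript assumed.

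The summed level per kilobase of the 6 members was 3625 ± 307 in shlacZ (n = 3), 2295 ± 18.9 in sh4 (n = 2) and 4077 ± 218 in sh8 (n = 2). SNAI2 made up 34.6, 38.5 and 34.6% of this sum in the shlacZ libraries, 15.5 and 13.4% in sh4, and 35.7 and 35.2% in sh8. ZEB2 made up 31.5 to 36.6% in shlacZ, 44.2 and 44.3% in sh4, and 38.2 and 33.9% in sh8. By canonical length ZEB2 was therefore the largest part of the sum in sh4, ahead of TCF12 at 24.95 and 26.6%, and in shlacZ SNAI2 and ZEB2 shared that place. With merged exons this turned: in sh4 TCF12 (382 ± 13.7 per kilobase) stood above ZEB2 (359.7 ± 2.12), and in shlacZ SNAI2 alone was highest.

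The balance between the melanocytic pair ZEB2 and SNAI2 and its counterpart ZEB1 and TWIST1 could be followed for 3 of the 4 genes. The ratio of ZEB2 to SNAI2 per kilobase was 1.06, 0.84 and 0.91 in shlacZ, 2.85 and 3.30 in sh4, and 1.07 and 0.96 in sh8. The ratio was higher in both sh4 libraries than in all others. Its value depends on the length rule, which scales all libraries alike and so cannot change their order. With merged exons the ratio was 0.45 to 0.57 in shlacZ, 1.52 and 1.76 in sh4, and 0.57 and 0.51 in sh8. The ratio of SNAI2 to TWIST1 was 3.59, 3.87 and 2.96 in shlacZ, 1.10 and 0.93 in sh4, and 3.26 and 2.96 in sh8. The ratio of ZEB2 to TWIST1 was 3.80, 3.27 and 2.70 in shlacZ, 3.14 and 3.08 in sh4, and 3.49 and 2.85 in sh8, with all groups overlapping. These ratios are descriptions, given without a test.

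As a single balance, the mean log2 value of ZEB2 and SNAI2 minus that of TWIST1 was 3.20 ± 0.21 in shlacZ (SD, n = 3), 2.29 ± 0.09 in sh4 (n = 2) and 3.11 ± 0.15 in sh8 (n = 2). It was lower in sh4 than in shlacZ by a log2 value of -0.91 and differed in sh8 by -0.09, less than the spread of the controls. The shift in sh4 came from SNAI2, for ZEB2 minus TWIST1 differed from shlacZ by only -0.05 and SNAI2 minus TWIST1 by -1.76. No alternative normalisation, pseudocount or left-out library moved either balance by more than the SD of the controls. Rescaling a whole library nearly cancels in such a difference, and a pseudocount is small beside these counts. Those settings could therefore hardly move the balance.

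**Figure D3:**
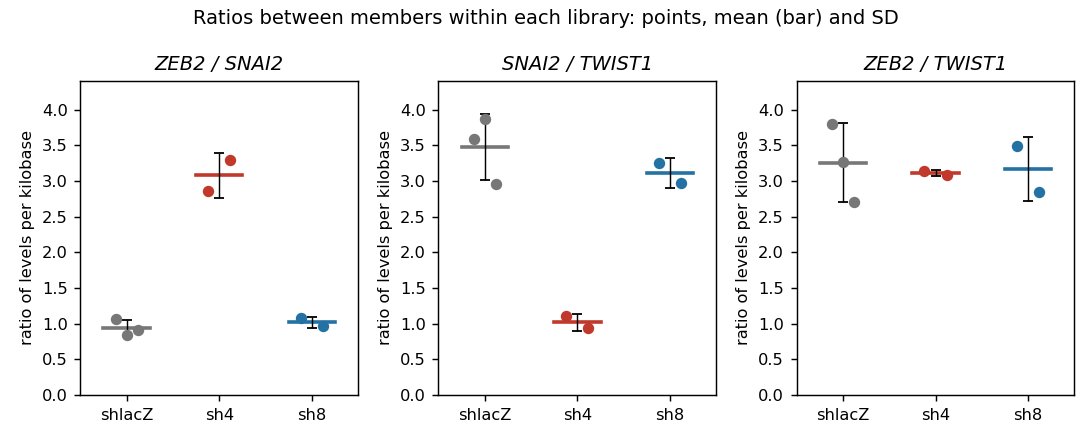
Ratios of levels per kilobase of canonical transcript (vertical axes, from 0) of ZEB2 to SNAI2, SNAI2 to TWIST1 and ZEB2 to TWIST1 in each library, with group mean (bar) and SD. The ratios that hold SNAI2 shift in sh4, to 2.85 and 3.30 and to 1.10 and 0.93, while ZEB2 to TWIST1 overlaps among all groups.

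Relatives and inhibitors of the members were read next. SNAI3, the third Snail gene, was near 0 (0.75 to 3.39 normalised counts) and was not tested, and its relative SCRT genes had no row. TCF3, the remaining E protein, had a log2 difference of -0.38 in sh4 (limma adjusted p = 0.0677) and -0.11 in sh8 (adjusted p = 0.695). ID proteins are helix-loop-helix proteins that lack a DNA-binding part and titrate E proteins away. None of ID1, ID2, ID3 and ID4 passed in any comparison; their differences in sh8 were -1.15, -1.21, -0.83 and 0.64, with wide scatter among the control libraries (ID1 at 75.3, 212 and 162 normalised counts).

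RNAs encoded beside the members were examined because several run antisense to them. ZEB2-AS1, which overlaps ZEB2 on the opposite strand, had 65.0, 50.3 and 43.5 normalised counts in shlacZ, 30.5 and 25.4 in sh4, and 59.3 and 37.3 in sh8. The sh4 libraries were the lowest, and the log2 difference of -0.88 did not pass (limma adjusted p = 0.0755). TEX41, a long non-coding RNA gene 145 kb from ZEB2, differed more than ZEB2 itself. Its normalised counts were 1096, 1532 and 998 in shlacZ, 426 and 340 in sh4, and 2769 and 1996 in sh8, with no overlap between any groups. TEX41 fell in sh4 (-1.64, adjusted p = 0.000724) and rose in sh8 (0.98, adjusted p = 0.0369), and the hairpins differed by -2.62 (adjusted p = 0.000896). The rise in sh8 did not pass when shlacZ replicate 3 or any sh4 or sh8 library was left out (adjusted p = 0.0616 to 0.251), whereas the fall in sh4 and the difference between hairpins passed each time. The libraries were made with a stranded kit, but whether counting used the strand is not given in the sources used here, so reads of overlapping antisense pairs may be shared.

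Of the other nearest neighbours on the chromosome, 2 passed in a comparison. UBE2V1, a ubiquitin-conjugating enzyme variant 92.2 kb from SNAI1, fell in sh4 (-0.97, limma adjusted p = 0.000594). Beside TWIST1, the transcript ENSG00000236536, 0.14 kb away on the opposite strand, had 40.3, 43.99 and 24.4 normalised counts in shlacZ and 9.03 and 10.4 in sh4 (-1.75, adjusted p = 0.0116, lost without either sh4 library at adjusted p = 0.0833 and 0.0627). The neighbours of SNAI2 were too distant or too low to compare: UBE2V2, 853 kb away, had -0.30 in sh4 (adjusted p = 0.117), PXDNL had at most 3.64 normalised counts, and the overlapping transcript ENSG00000288761 at most 11.4. None of GTDC1 beside ZEB2, HDAC9 beside TWIST1, C18orf54 and TXNL1 beside TCF4, and LINC00926 beside TCF12 passed in any comparison. LINC02993, KRT18P4, ENSG00000232821 and ENSG00000285253 were too low to be tested, and ENSG00000279166, inside ZEB2, did not pass.

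Across the 7 libraries the genes whose pattern was most like that of SNAI2 were ZNF354B (Pearson r = 0.993), TMEM131L (0.992) and the zinc transporter SLC39A6 (0.991). SLC39A6 had 3419, 3836 and 3745 normalised counts in shlacZ, 1985 and 1820 in sh4, and 3674 and 3638 in sh8, the same step as SNAI2 but shallower. For TWIST1 they were RTF2 (0.981), LSS (0.979) and GNB4 (0.978), and for ZEB2 ENSG00000291087 (0.972), MSI2 (0.957) and GTF3C2-AS2 (0.953). For TCF12 they were WLS (0.995), ZNF614 (0.987) and RPL15 (0.987). For the scarce SNAI1 they were DNAJB1 (0.987), ELP5 (0.970) and CGGBP1 (0.969), and for TCF4 H2BC26 (0.974), ENSG00000289513 (0.972) and HHAT (0.960). These are the highest of 12049 genes over only 7 libraries that share groups. As many as 155 genes followed SNAI2 with r over 0.95, compared with 24 for TWIST1 and 4 for ZEB2.

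A list of 29 epithelial genes was read next, as the class of gene that EMT factors repress. Whether each of them is a target of a member was not tested. CDH1, the textbook target of SNAI and ZEB repressors, was nearly silent, with 10.3, 8.38 and 16.5 normalised counts in shlacZ, 5.65 and 1.49 in sh4, and 7.91 and 12.7 in sh8. It was lowest in sh4, where SNAI2 was lowest too, but too low to be tested. Of the 29 genes 14 had a row and 11 were tested: 6 were higher and 0 lower in sh4, where 10.5% of all genes tested were higher and 11.9% lower, with a median log2 difference of 0.83 against -0.01 over all genes. In sh8 1 was higher and 0 lower (median 0.17, against 1.38% and 1.54% of all genes), and pooled 2 were higher and 0 lower (median 0.59, against 2.55% and 2.06%). Between the hairpins 3 were higher in sh4 and 0 lower (median 0.64, against 3.67% and 3.33%). These counts leave out factors that keep the epithelial state, which were listed apart. Of those, ESRP1 went the other way in sh4 (-2.25, limma adjusted p = 0.000643).

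JUP, the junctional plaque protein plakoglobin, showed the largest of these differences, with 46.4, 32.5 and 55.7 normalised counts in shlacZ, 422 and 383 in sh4, and 98.9 and 195 in sh8. It was higher in both hairpins, by 3.17 in sh4 (limma adjusted p = 0.000209) and 1.64 in sh8 (adjusted p = 0.0257), the latter lost without shlacZ replicate 2, either sh4 library or sh8 replicate 2 (adjusted p = 0.0607 to 0.229). The polarity protein PATJ rose in sh4 alone among the hairpins (1.76, adjusted p = 0.00033; sh8 -0.02, adjusted p = 0.974; difference between hairpins 1.78, adjusted p = 0.00194). F11R, the junctional adhesion molecule A, had 1.12 in sh4 (adjusted p = 0.00389; 0.0579 without sh4 replicate 2). MUC1, a mucin, had 2.27 (adjusted p = 0.00821; 0.0810 and 0.0605 without either sh4 library) at 4.35 to 42.9 normalised counts. CDH3 and LLGL2 were the other 2 that passed.

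**Figure D4:**
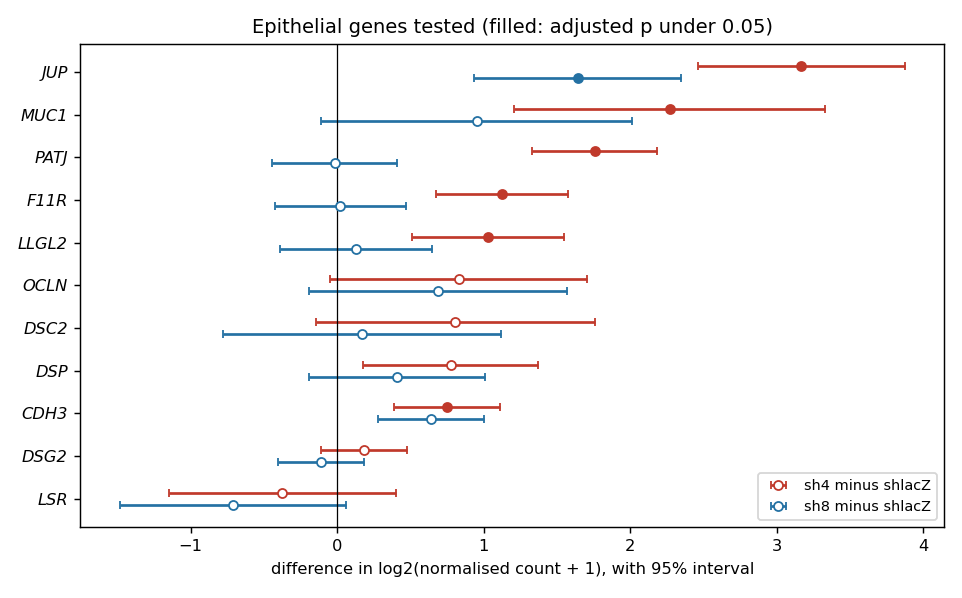
Differences in log2(normalised count + 1) with 95% intervals (horizontal axis) for the 11 tested epithelial genes in sh4 and in sh8 against shlacZ; filled points have adjusted p under 0.05. In sh4 6 genes are filled and all lie above 0, JUP highest at 3.17; in sh8 only JUP is filled, at 1.64.

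SNAI, ZEB and TWIST proteins recognise E boxes, so promoters of RefSeq (GRCh38.p14, 250 bases before to 50 after a start site) were searched for CAGGTG on either strand, which on the gene strand reads CAGGTG or CACCTG. Of all 35116 promoters 20.6% hold it, or 24.1% of 27305 genes counted over all their promoters. Of the epithelial list 18 genes had an entry and 13 of them hold the word in at least 1 promoter. JUP, PATJ and MUC1, the named genes with an entry, all hold it. Of the 10 genes of the list with both a row and an entry 8 hold it, among them tested genes that passed in no comparison. One window of 30 bases is shown for each, on the strand of the gene, with the E box in capitals; positions count from the start site.
JUP, position -43, chr17:41786002-41786031, minus strand: ccacctgccgagCAGGTGagcgcacggagt
PATJ, position -30, chr1:61742438-61742467, plus strand: gggagggcctgcCAGGTGaggcgcggtcac
MUC1, position -82, chr1:155192980-155193009, minus strand: gcggggttttgtCACCTGtcacctgctccg
JUP and MUC1 hold 2 such sites each and PATJ 3, and the match says only that the letters are there.

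Among the members, ZEB2, ZEB1, TWIST2, TCF4 and TCF12 had promoter entries. The words CACATG and CACGTG, E boxes of the kind known to be bound by the melanocyte factor MITF, occur in 11.1% and 7.26% of all promoters. On either strand, where it may read CATGTG, the word CACATG occurs in the 1 entry of ZEB2, 1 of 5 of TCF12, 1 of 10 of TCF4 and 1 of 7 of ZEB1, and CACGTG in 1 of 5 of TCF12 and 1 of 10 of TCF4. All matches in the tested members are shown, with the word in capitals.
ZEB2, position -180, chr2:144520282-144520311, minus strand: cgatcacgttttCACATGatgctcacgctc
TCF12, position -183, chr15:56917895-56917924, plus strand: aagaactagtccCACGTGcagttcggttgc
TCF12, position -18, chr15:57219400-57219429, plus strand: tttgagtagatcCATGTGtgaatgcatagt
TCF4, position -49, chr18:55588649-55588678, minus strand: gtctttttgcatCACGTGtatttgcagcct
TCF4, position 29, chr18:55422252-55422281, minus strand: agtttattcatcCACATGctttttggcgac
TCF4, position -242, chr18:55422518-55422547, minus strand: ataggaaaCATGTGatgagtgttagcctaa
MITF fell in sh4 (-0.71, limma adjusted p = 0.00483; 0.0566 without sh4 replicate 2) and had -0.13 in sh8 (adjusted p = 0.658), while ZEB2, TCF12 and TCF4 did not pass in either.

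Mesenchymal genes, which EMT factors raise in carcinoma cells, moved in both directions. Of 29 listed 15 were tested, and 5 were higher and 1 lower in sh4 (median 0.36), 3 higher and 0 lower in sh8 (0.46), 1 higher and 0 lower pooled (0.31), and 0 higher and 2 lower between the hairpins (-0.04). Of all genes tested 10.5% were higher and 11.9% lower in sh4, and 1.38% and 1.54% in sh8. Pooled the shares were 2.55% and 2.06%, and between the hairpins 3.67% and 3.33%. CDH2, the N-cadherin of the cadherin switch, was at 4.48 normalised counts or less in every library. Vimentin (VIM) and fibronectin (FN1) were abundant and did not pass, at -0.30 (limma adjusted p = 0.111) and 0.36 (adjusted p = 0.363) in sh4. The membrane protease MMP14 rose in sh4 (1.33, adjusted p = 0.00147) and sh8 (1.08, adjusted p = 0.0195; lost without either sh8 library, 0.0723 and 0.199). MMP2, a gelatinase, fell in sh4 (-2.30, adjusted p = 0.00214), and the low TAGLN (1.63, adjusted p = 0.0234) rose there, a call lost without shlacZ replicate 2 or 3 or sh4 replicate 1 (0.0572 to 0.231). As these are bulk libraries, fewer cells with a transcript and less RNA per cell cannot be told apart for any gene.

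Other transcription factors tied to EMT were counted against 22.5% of all genes passing in sh4 and 2.92% in sh8. The shares of all genes were 4.61% pooled and 7.0% between the hairpins. Of 17 listed 11 were tested: 3 were higher and 4 lower in sh4 (median -0.48), 1 higher and 0 lower in sh8 (-0.13), 1 higher and 1 lower pooled (-0.37), and 1 higher and 2 lower between the hairpins (-0.21). RUNX2, a runt factor of bone that is also expressed in melanoma, had 130, 215 and 178 normalised counts in shlacZ, 770 and 867 in sh4, and 799 and 865 in sh8. It rose in both hairpins, by 2.25 (limma adjusted p = 0.00012) and 2.28 (adjusted p = 0.000885), and did so in each alternative setting. HMGA2, an architectural protein known to raise SNAI1, SNAI2 and TWIST1, fell in sh4 (-1.07, adjusted p = 0.000239) and not in sh8 (0.06, adjusted p = 0.814), the same side as SNAI2. SOX4 rose (0.72, adjusted p = 0.0032) and ETS1 fell (-0.69, adjusted p = 0.00365) in sh4. Of 10 factors that keep the epithelial state 3 were tested, to be read against the same shares of all genes. ESRP1, a splicing regulator, fell in sh4 (-2.25, adjusted p = 0.000643). In sh8 and pooled 0 of 3 passed, and between the hairpins 1 was lower.

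The machinery around the members was described last. Of 18 corepressors recruited by ZEB and SNAI proteins, all tested, 3 were lower and 0 higher in sh4 (median -0.14), against 11.9% of all genes lower and 10.5% higher. In sh8 and pooled 0 passed, against 2.92% and 4.61% of all genes. KDM1A, the histone demethylase bound by the SNAG domain of SNAI proteins, was 1 of the 3 lower in sh4 (-0.59, limma adjusted p = 0.00328, in each alternative). MTA1, a subunit of the NuRD complex, had -0.52 (adjusted p = 0.0199; 0.0623 without shlacZ replicate 3 and 0.169 without sh4 replicate 2). CTBP2, the corepressor of ZEB proteins, had -0.41 (adjusted p = 0.0313), a call lost without any 1 library other than shlacZ replicate 1 (0.0505 to 0.201). Of 10 genes that set the stability of the proteins, all tested, 1 was higher and 1 lower in sh4, against 10.5% and 11.9% of all genes. USP11, a deubiquitinase, rose there (1.36, limma adjusted p = 0.000831). COPS2 fell there (-0.47, adjusted p = 0.0166), a call lost without shlacZ replicate 2 or 3 or either sh4 library. In sh8 0 passed, against 2.92% of all genes. Of 22 upstream signals 21 were tested, with 6 higher and 5 lower in sh4 (10.5% and 11.9% of all genes) and 1 higher and 3 lower in sh8 (1.38% and 1.54%). Among them SMAD3, a mediator of TGF-beta signals, rose in sh4 (1.60, adjusted p = 0.000241) and sh8 (0.94, adjusted p = 0.0172; lost without shlacZ replicate 2 or sh8 replicate 2, 0.0582 and 0.183). HES1, a Notch target, fell in sh4 (-1.57, adjusted p = 0.000146) and sh8 (-0.85, adjusted p = 0.0155; lost without shlacZ replicate 2 or 3 or either sh8 library, 0.0573 to 0.146). Of 16 melanocytic genes 11 were lower and 1 higher in sh4 (median -1.12, against 11.9% and 10.5% of all genes), the group in which SNAI2 fell. In sh8 0 were lower and 1 higher (-0.28, against 1.54% and 1.38%). Of 17 genes of dedifferentiated melanoma cells, the state tied to TWIST1 and ZEB1, 8 were tested. In sh4 1 was higher and 0 lower (22.5% of all genes passing), in sh8 1 was higher and 0 lower (2.92%), and pooled 0 passed (4.61%). The matricellular gene CCN2 was the one in sh8 (1.52, adjusted p = 0.0380; lost without shlacZ replicate 3 or any sh4 or sh8 library, 0.0743 to 0.228).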

How the data were processed

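RNA of 7 libraries from 501Mel cells was analysed: shlacZ (n = 3), sh4 (n = 2) and sh8 (n = 2), grouped by their titles. Per the study's methods and the submitters' processing notes, rRNA-depleted stranded libraries were trimmed with Cutadapt, mapped to hg38 with STAR and quantified with Salmon. The table deposited by the authors holds read counts divided by a DESeq2 size factor per library; multiplying by the recovered factor gave whole reads (within 0.1) for 100% of values. It lists 21305 genes with 10 or more reads summed over the libraries, and rows outside it are not analysed here. These normalised counts were log2 transformed with a pseudocount of 1, and genes with a mean of at least 10 (15420) were tested in limma 3.58.1 (R 4.3.3) with a variance trend and Benjamini-Hochberg adjustment over all of them at 0.05. The pooled comparison used 2 levels, as the study did; each hairpin and their difference came from a fit of 3 groups. No negative binomial count test was run; limma-voom on recovered reads with trimmed-mean normalisation was an alternative, as were other pseudocounts, filters, scalings, fits and left-out libraries. The scripts were tested on simulated data. Read depth (13337317 to 22855232) sets the counting error, which is part of the spread between libraries. Coordinates and exon lengths are from GENCODE 44 (GRCh38), and promoters from RefSeq GRCh38.p14, matched by symbol.

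The members, the gene lists and the comparisons were chosen with earlier results of these data known. Named were all members, all of their relatives, ID proteins and antisense partners, and up to 4 genes of each other list with adjusted p under 0.05 pooled, in sh4 or in sh8, taken by smallest adjusted p. CDH1, CDH2, VIM, FN1, MITF and GRASLND were always named. So were the 3 genes most like each member by Pearson r (mean of at least 50) and the nearest gene on each side. CDH3 and LLGL2 were named beyond that rule, after their values were seen. The list of dedifferentiated genes includes some mesenchymal genes.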

Additional observations from a re-analysis of the deposited data

Results flagged for a closer look

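The effect against shlacZ differed between the hairpins for 25 of the 72 named genes with a test, by limma adjusted p under 0.05 for sh4 minus sh8. Of all genes tested 7.0% passed in that contrast; many entered by a pass in 1 hairpin or by a pattern like that of a member over the same libraries, so nothing is read from their higher share. Of the 25, 19 were lower and 6 higher in sh4. SNAI2 was the 1 member among them, with a log2 difference of -2.12. The neighbour TEX41 had -2.62, UBE2V1 beside SNAI1 -1.15, and the genes most like SNAI2 or TWIST1 in pattern had -0.72 (TMEM131L), -0.94 (SLC39A6), -0.75 (RTF2) and -0.63 (LSS). Among factors tied to EMT the differences were -1.13 for HMGA2, 0.94 for SOX4, -0.53 for ETS1 and -2.07 for ESRP1. Among partners they were -0.46 for KDM1A, 0.81 for USP11 and -0.53 for COPS2, and for the Notch target HES1 -0.71. Genes of the epithelial list were on the positive side, with JUP at 1.53, PATJ at 1.78 and F11R at 1.10. ESRP1, listed apart among factors that keep the epithelial state, was on the negative side at -2.07. The mesenchymal MMP2 was at -2.44. Melanocytic genes were on the negative side, with MITF at -0.59, TYRP1 at -1.54, DCT at -2.30, EDNRB at -1.40 and TRPM1 at -1.62. LYZ, the immune marker that rose in sh4, had 5.82, with 337 and 492 normalised counts in sh4 and 0 to 7.28 in the other libraries; it reached the minimum mean through sh4 alone, and its value ran from 4.68 to 6.10 over the alternatives. With each library left out in turn 11 of the 25 passed every time (SNAI2, TEX41, UBE2V1, SLC39A6, HMGA2, ESRP1, PATJ, TYRP1, DCT, EDNRB and TRPM1), and the other 14 lost the call without at least 1 library, at adjusted p of up to 0.271. GRASLND itself had -0.34 (adjusted p = 0.421) between the hairpins, so the depth of its knockdown was not shown to differ. Within the 4 knockdown libraries no member had a library standing apart past the 95% critical value of Dixon's test, SNAI1 coming closest to it with a gap of 0.828 of its range. Where the libraries pair by hairpin, as for SNAI2 (gap of 0.105), that test cannot flag a single library, so nothing is concluded from it there.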

How the results depend on the processing

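The fall of SNAI2 in sh4 (-2.08 to -1.85) and its difference between the hairpins (-2.23 to -2.01) passed in all 17 and 16 alternatives, and the balance of ZEB2 and SNAI2 against TWIST1 moved by less than the SD of the controls in all 10. Rescaling a library or changing the pseudocount could hardly move that balance, which is a difference within a library. The pooled SNAI2 difference of -0.91 passed only with sh4 and sh8 averaged after fitting 3 groups (limma adjusted p = 0.00142). Between the hairpins ZEB2 (-0.53) passed with a replicate block (adjusted p = 0.0263), TWIST1 (-0.53) with quantile normalisation (0.0355), and both without shlacZ replicate 1 (0.0312 and 0.0238); with 1 library left out at a time they ranged from -0.67 to -0.39 and from -0.52 to -0.50. Uncalled differences that changed sign were those of ZEB2 pooled (-0.0827 with the replicate block, -0.12 to 0.10 with a library left out), TWIST1 pooled (-0.0346 to 0.14), TCF4 between the hairpins (0.0149 at the same total per library, -0.23 to 0.10 with a library left out) and TCF12 in sh8 (-0.15 to 0.0486); the cause was not tested. Pooled SNAI2 ranged from -1.28 to -0.51 with a library left out.

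The numbers of genes called depended on the libraries. With 1 library left out, the pooled count of 711 ran from 66 to 1189, that of sh4 (3464) from 1407 to 4867, that of sh8 (451) from 52 to 1597, and that between the hairpins (1079) from 144 to 1979. Without the variance trend the counts were 138 pooled, 59 in sh8 and 476 between the hairpins. The pooled count was 2534 with sh4 and sh8 averaged after fitting 3 groups, and that of sh8 was 299 with sh8 and shlacZ alone. A replicate block gave 42 pooled calls; replicate numbers are not stated to mark a shared batch, and deviations of same-numbered libraries correlated at -0.08 to 0.34, so they were not treated as pairs. Leaving out an sh4 or sh8 library leaves that hairpin with 1, which is then assumed to vary like the other groups. Levels per kilobase in shlacZ with all exons merged were 867 for SNAI2, 431 for ZEB2, 441 for TCF12, 307 for TWIST1 and 3.68 for TCF4, while SNAI1 kept its value. Of 1176 alternative values of other named genes, followed where they passed, 1018 kept their call, 158 lost it and 0 changed direction. Depth limits SNAI1 and TCF4, with as few as 29 and 56 reads.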
